A study of Mus musculus with 4 samples.

Results

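The mitochondrial ribosomal proteins are the 78 protein-coding genes of the mouse whose symbol begins with Mrpl or Mrps followed by a number. They were picked by symbol alone from the 50600 genes counted. By that spelling 49 of them belong to the large subunit of the mitochondrial ribosome and 29 to the small subunit. Another 5 matching symbols are processed pseudogenes and were left out.

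Mitochondria translate the few proteins encoded by their own DNA on ribosomes of their own. The RNA of those ribosomes comes from the mitochondrial chromosome, whereas every protein of both subunits is encoded in the nucleus, made in the cytosol and imported. Many of these proteins have a counterpart in bacterial ribosomes, and the others are found only in mitochondria. The products of this translation are core subunits of the respiratory chain and of ATP synthase, and drugs that block mitochondrial translation are known to lower cytokine production by T cells, Th17 cells included.

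RNA was measured by paired-end RNA-seq in T-helper 17 (Th17) cells, the CD4 T cells that produce interleukin-17. These were primary cells of C57BL/6NJ mice prepared, per the labels, by a protocol for the differentiation of CD4 T cells, with no genetic change or further treatment in the labels and with age unknown. There was 1 group of 4 libraries, biological replicates 1 to 4, so every comparison is between genes or between replicates. GEO names the assay as total RNA-seq, and the labels link a library protocol whose name carries PolyA+.

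Libraries held between 24696730 and 37025016 fragments assigned to genes. All 10 Th17 markers examined reached 1 TPM in every library (TPM, a level per length: fragments divided by the bases of the gene's exons and set to a common library total). All 5 general T-cell markers reached 100 TPM. Of 5 B-cell markers none reached 1 TPM in every library, and their summed level was 0.280 to 0.893 TPM with Pax5 and Ms4a1 at 0. Of 5 myeloid markers none reached it either, at a sum of 0.0371 to 0.159 TPM with Lyz2 at 0. Of 5 CD8 and NK markers 1 reached it, Cd8b1 at 7.32 TPM, and of 5 stromal and endothelial markers 1, Pecam1 at 3.24 TPM. The labels give 1 donor identifier for all 4 libraries, yet Xist had 187 and 161 TPM in replicates 1 and 2 and 0.687 and 0.721 TPM in replicates 3 and 4. Ddx3y, on chromosome Y, ran the other way, with 0.442 and 0.446 TPM in replicates 1 and 2 and 88.6 and 83.2 TPM in replicates 3 and 4. The libraries therefore fall into pairs by these sex-linked genes, though no label gives sex. Spread between replicates, in the variability test too, includes any difference between the pairs. Where values below are given per library, both pairs can be read, whereas means over the 4 libraries pool the pairs.

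The genes for mitochondrial ribosomal proteins were almost all well expressed. Of the 78, 77 held at least 10 TPM in each of the libraries, a share of 98.7%, against 33.9% of the 21764 protein-coding genes. Across all 4 libraries 34 members held 100 TPM or more, a share of 43.6%, against 8.72% of protein-coding genes, and 7 members were at 200 TPM or more. The median member had 89.0, 92.0, 94.5 and 91.1 TPM in replicates 1 to 4. The median of the 9761 protein-coding genes that reached 1 TPM in every library was 31.2 ± 0.283 TPM (SD, n = 4). For the 7379 at 10 TPM or more it was 48.5 ± 0.409 TPM, and 1898 of these held 100 TPM or more. TPM divides by exon length, which had a median of 2080.5 bases in members and 4138 bases in those 7379 genes. Together the 78 genes made up 0.815% ± 0.0108 of the TPM of a library (SD, n = 4). The 83 cytosolic ribosomal protein genes, which serve the ribosomes outside mitochondria, made up 13.7% ± 0.170. Apart from Mrpl53, each member was counted in 1236 fragments or more over the 4 libraries, so counting error on a member is small beside the differences between members.

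**Figure D1:**
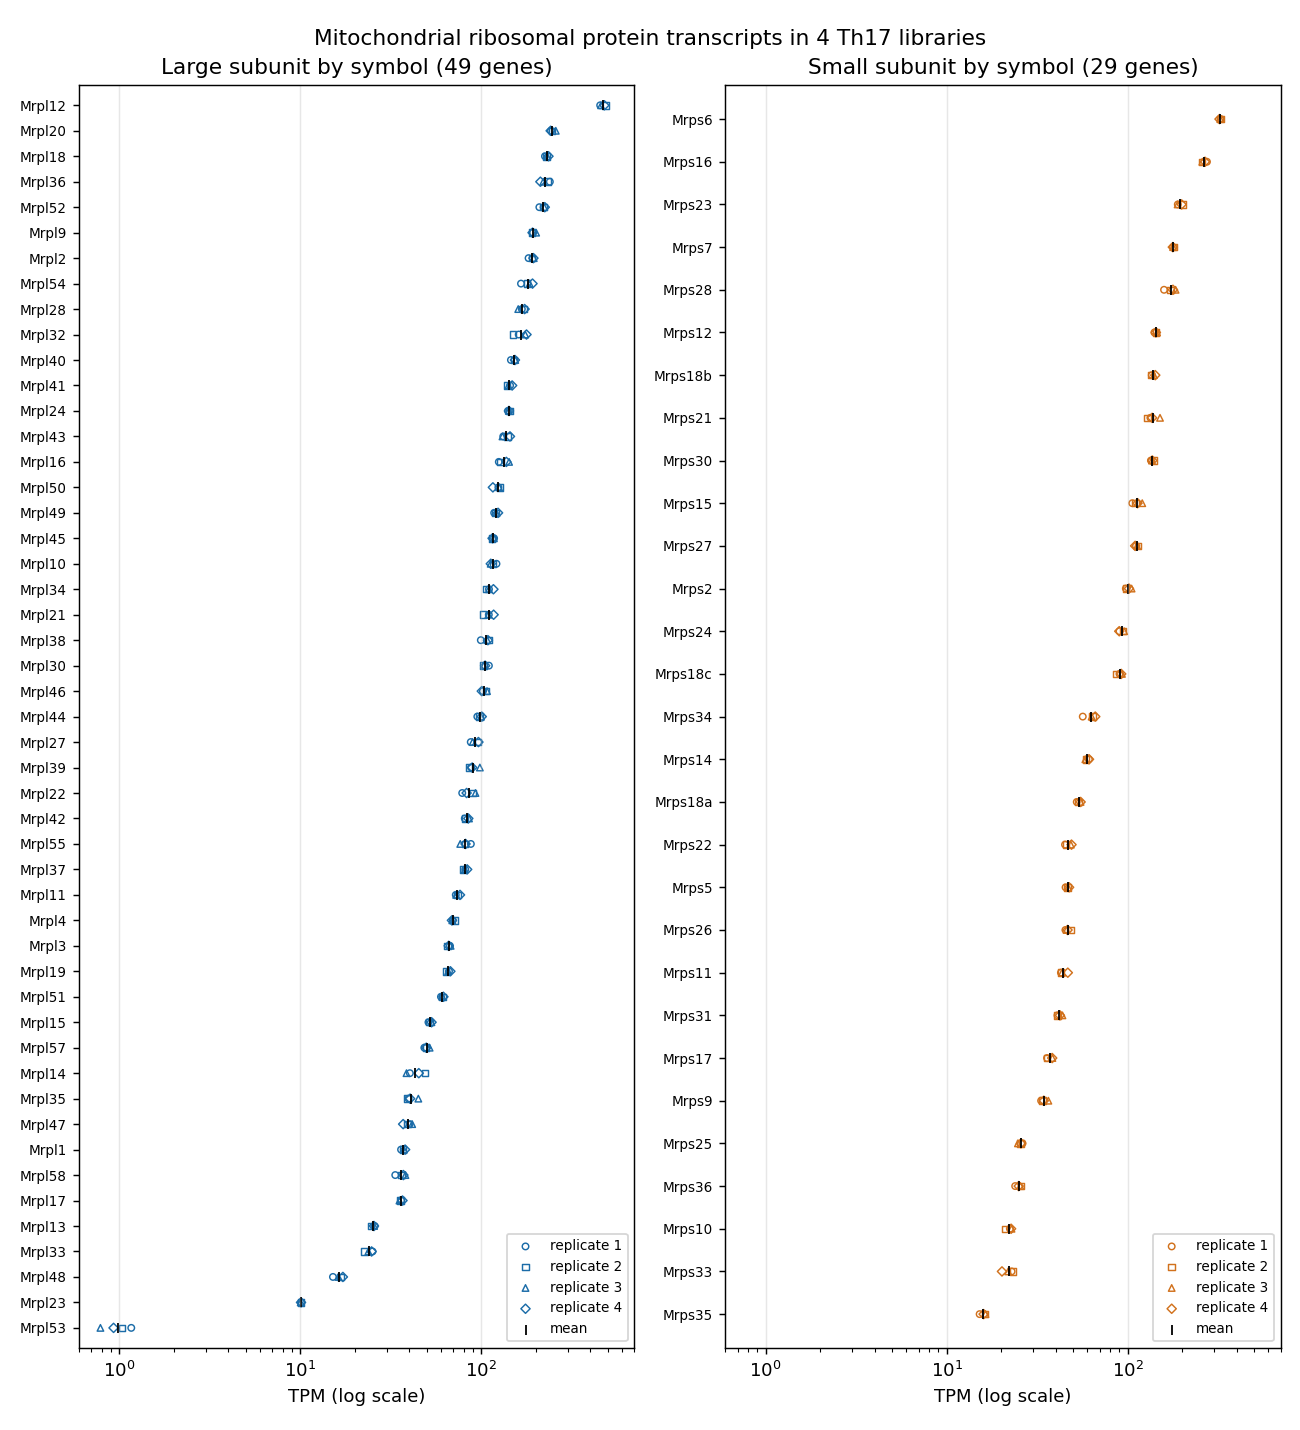
TPM of each mitochondrial ribosomal protein gene in 4 Th17 libraries, on a log scale, for the 49 large subunit genes at the left and the 29 small subunit genes at the right. Open symbols are single libraries and the black tick is their mean. The 4 libraries of a gene lie close together, whereas genes range between 0.978 TPM for Mrpl53 and 468 TPM for Mrpl12.

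Mrpl12 was the highest of the 78 genes. It encodes the protein of the flexible stalk that recruits translation factors to the large subunit, and lies on chromosome 11 at 120484613 to 120489065 (mm10), plus strand. It had 453, 484, 458 and 478 TPM in replicates 1 to 4. All 4 values were above every library of every other member.

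The next large subunit genes were close to each other. Mrpl20, whose bacterial counterpart is needed early in the assembly of the large subunit, had 242, 246, 258 and 241 TPM. Mrpl18, a protein of the central protuberance, had 225, 229, 231 and 235 TPM. Mrpl36, one of the smallest ribosomal proteins, had 239, 231, 220 and 212 TPM. The ranges of Mrpl18 and Mrpl36 overlapped, and the lowest library of Mrpl20 was above the highest of Mrpl18.

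In the small subunit Mrps6, a protein of the platform on chromosome 16 at 92058270 to 92112227, came first with 327, 326, 326 and 322 TPM. Mrps16, a protein with a bacterial counterpart, had 275, 258, 259 and 268 TPM. Mrps6 stood apart from its neighbours in the order of all 78 genes, while the lowest library of Mrps16 was level with the highest of Mrpl20. Mrps23, found only in mitochondria, had 189, 203, 189 and 199 TPM. Mrps7, which binds the ribosomal RNA in the head of the small subunit, had 178, 180, 178 and 178 TPM. Of the exon bases of Mrps6, 15.1% are also exons of Slc5a3 on the same strand.

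At the low end Mrpl53 was alone. It is a protein of the large subunit found only in mitochondria, located near the base of the stalk. It had 1.16, 1.04, 0.785 and 0.928 TPM, from 30 fragments in all 4 libraries, where a count of 3 fragments corresponds to 0.518 TPM in the shallowest library. The gene lies on chromosome 6 at 83109040 to 83109939, and 88.0% of its exon bases are also exons of another gene on the same strand, Gm42688. Gm42688 itself averaged 1.82 ± 0.384 TPM from 257 fragments. Whether fragments of Mrpl53 were left out as belonging to both genes cannot be told from the counts.

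Mrpl23 was the next lowest, with 10.08, 10.06, 10.04 and 10.08 TPM. Its protein sits at the exit of the tunnel through which the new chain leaves. Of its transcript's 50-base words, 76.4% also occur in transcripts of other loci, most of all in the pseudogene Mrpl23-ps1, which had 4.12 to 7.43 TPM. Mrpl48, of the central protuberance, had 15.1, 16.7, 16.2 and 17.2 TPM. Mrpl33, a small protein with a bacterial counterpart, had 25.04, 22.5, 23.7 and 24.7 TPM. Among small subunit genes Mrps35, found only in mitochondria, was lowest with 15.2, 16.3, 16.4 and 16.0 TPM. Mrps33, also found only in mitochondria, had 22.9, 23.3, 21.9 and 20.2 TPM. Mrps10, a protein of the head, had 22.4, 20.99, 22.8 and 22.7 TPM. Mrps36 followed with 23.9, 25.8, 25.6 and 25.04 TPM, but despite its symbol its product is now assigned to the 2-oxoglutarate dehydrogenase complex and not to the ribosome.

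Members of 1 complex thus spanned a wide range of transcript levels. The highest mean was 479 times the lowest, or 46.5 times without Mrpl53, and the lower and upper quartiles were 44.6 and 138 TPM. In the order of the 78 genes by mean, the ranges over 4 libraries overlapped in 63 of 77 neighbouring pairs. Most neighbours in the order thus did not differ beyond their spread over libraries.

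Several symbols do not name the place of the protein. Mrps30 and Mrps18a carry small subunit symbols, but both proteins are part of the large subunit. Mrps30 had 135, 140, 136 and 137 TPM. Mrps18a had 52.4, 53.7, 55.0 and 55.0 TPM. Its relatives in the small subunit were Mrps18b, with 136, 135, 140 and 142 TPM, and Mrps18c, with 90.2, 86.2, 93.1 and 92.3 TPM. Both were above Mrps18a on this scale, but with each gene's length taken from its principal transcript, as described further on, the means were 154 TPM for Mrps18a, 182 TPM for Mrps18b and 104 TPM for Mrps18c, which puts Mrps18a above Mrps18c. In addition, 30.9% of the words of Mrps18b recur at other loci and 23.2% of the exon bases of Mrps18c overlap another gene. Mrpl58, a peptidyl-tRNA hydrolase built into the large subunit, had 33.4, 36.2, 38.0 and 37.1 TPM. Mrpl57, another large subunit protein without a bacterial counterpart, had 48.4, 49.4, 51.8 and 49.6 TPM. Mrps12, the decoding-site protein whose bacterial form carries streptomycin resistance changes, had 141, 144, 146 and 143 TPM.

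A further 5 subunits have symbols of another kind. Chchd1, a small subunit protein with a twin cysteine fold, had 268, 271, 299 and 280 TPM, above all but Mrpl12 and Mrps6 by mean. Aurkaip1 had 151, 160, 153 and 157 TPM. Gadd45gip1, the only one of the 5 in the large subunit, had 89.9, 99.6, 96.6 and 91.7 TPM. Ptcd3, a pentatricopeptide repeat protein, had 85.5, 82.5, 86.9 and 83.3 TPM. Dap3, the GTP-binding protein of the small subunit head, had 60.3, 61.1, 60.0 and 60.7 TPM. With these added and Mrps36 removed, 82 subunits were assigned, 52 to the large and 30 to the small subunit.

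By symbol, the large subunit's median gene was above the small subunit's. The large subunit medians were 95.0, 97.5, 99.6 and 100.5 TPM in replicates 1 to 4, and the small subunit medians were 61.2, 63.9, 63.3 and 66.3 TPM. The 4 values of each did not overlap. As a median of log2(TPM + 1), a scale that understates differences of low genes, large minus small was 0.63, 0.60, 0.64 and 0.59, with a mean of 0.62 ± 0.02 (SD, n = 4) and higher in 4 of 4 libraries. This order depends on how genes are grouped and measured. With proteins assigned by their place in the ribosome the difference shrank to 0.15 ± 0.06. That set also added the 5 subunits with other symbols and left out Mrps36, and the parts of this change were not separated. With means in place of medians, by symbol, the difference was 0.18 ± 0.01. With each gene's length taken from its longest APPRIS principal transcript (the annotation's main coding isoform), it reversed to -0.17 ± 0.05. With the longest coding transcript it reversed to -0.14 ± 0.03. Both lengths were capped at the exon length counted, which stood in for a longer principal transcript in 11 members. Mrps16, for example, kept 566 bases in place of 2572. The direction thus turned with the gene length used. As a separate description, the SD of log2 TPM among members was 1.42 in the large and 1.17 in the small subunit.

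**Figure D2:**
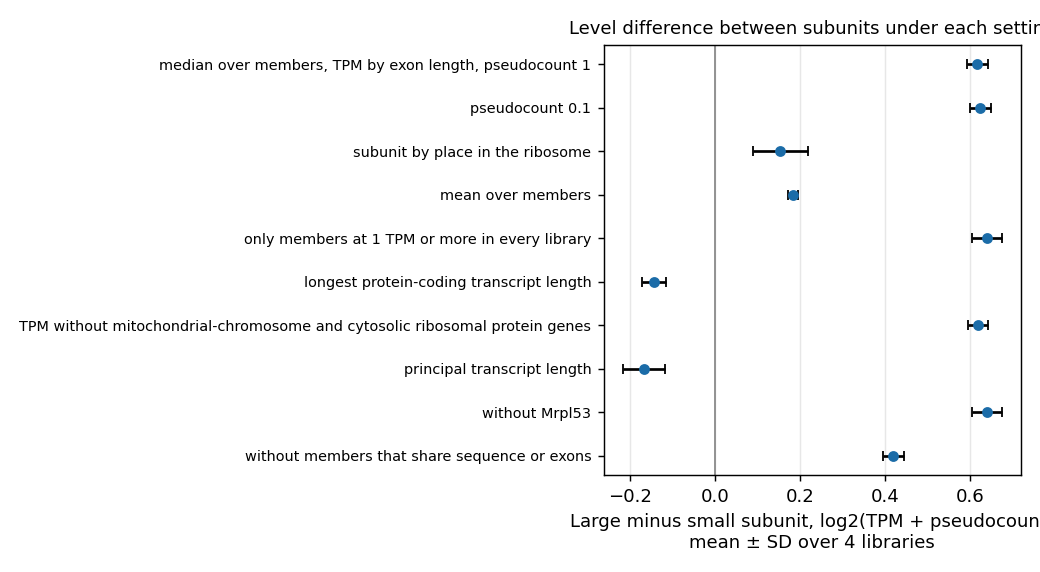
Large minus small subunit, as the difference of log2(TPM + pseudocount) under each setting (49 and 29 genes by symbol in the top one). Points are means over 4 libraries and bars are 1 SD. The top setting gives 0.62, and both settings with the length of a single transcript fall below 0.

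The large subunit, with 49 genes against 29, also had the higher summed level. Large subunit genes held 0.536% ± 0.00706 of TPM and small subunit genes 0.279% ± 0.00395 (SD, n = 4). As shares of fragments, without division by length, they held 0.322% ± 0.00438 and 0.161% ± 0.00293 in the same order. At 100 TPM or more in every library were 23 of 49 large and 11 of 29 small subunit genes.

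Members with a bacterial counterpart were compared with those found only in mitochondria, each in its true subunit. Subunits with symbols of another kind are not members and were left out. In the small subunit the 16 with a bacterial counterpart had medians of 94.0, 96.1, 100.5 and 97.0 TPM, and the 10 found only in mitochondria had 45.2, 47.0, 47.3 and 47.8 TPM. The difference of medians of log2(TPM + 1) was 1.03 ± 0.03 (SD, n = 4), and it stayed above 0 with means (0.76) and with principal transcript length (0.65). In the large subunit the 30 with a bacterial counterpart had medians of 87.4, 92.6, 91.1 and 89.6 TPM, and the 21 found only in mitochondria had 99.3, 106, 107 and 101 TPM. Here the difference was -0.20 ± 0.03, but it reversed to 0.16 with means and was -0.0065 with principal transcript length. With means, both subunits had the higher value in members with a bacterial counterpart. Of the subunits left out, Chchd1, Aurkaip1, Ptcd3 and Dap3 of the small subunit averaged 279, 155, 84.6 and 60.5 TPM. All were above the median of small subunit members found only in mitochondria. Gadd45gip1 of the large subunit, at 94.5 TPM, was below the corresponding large subunit median. The contrasts with these subunits added were not computed. Members are not replicates, so neither contrast was tested, nor was the difference between subunits.

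Grouped by position, in groups formed after the values were known, levels spread more widely within each group than the group medians differed. The 5 stalk and stalk-base proteins were Mrpl12, Mrpl54 (180 ± 11.1 TPM), Mrpl10 (116 ± 4.01), Mrpl11 (73.7 ± 1.81) and Mrpl53 (0.978 ± 0.160), with SD over 4 libraries. The 8 genes around the exit tunnel ran from 142 ± 1.36 TPM for Mrpl24 through 116 ± 1.39 TPM for Mrpl45, which anchors the ribosome to the inner membrane, to Mrpl23. The 7 of the central protuberance had a median of 103 ± 4.01 TPM. In the small subunit, 5 genes of the head had a median of 60.0 ± 1.43 TPM and 4 of the platform 114 ± 6.07 TPM.

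Part of the spread between members went with the gene length used for TPM. Across the 78 genes, exon length and mean TPM had a Spearman rho of -0.65, against -0.28 across 7379 protein-coding genes at 10 TPM or more. Every point shares the same libraries, and TPM contains the length as divisor, so this is a description. The exons of all isoforms together had a median length of 4651 bases in the 20 lowest members and 1192 bases in the 20 highest. In 8 of the 20 lowest and 2 of the 20 highest, those exons came to more than double the principal transcript.

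Mrpl33 shows how far this can go. Its exons sum to 7326 bases, against 478 bases for its principal transcript. When the TPM of all genes was computed from principal transcripts, under the same cap, Mrpl33 stood at 251 TPM in place of 24.0. It moved to rank 6 from rank 72. Mrps10 likewise came to 120 TPM in place of 22.2, Mrpl13 to 112 in place of 25.3, Mrpl42 to 313 in place of 83.1 and Mrpl23 to 48.4 in place of 10.1. Mrpl12 came to 372 TPM and rank 2, behind Mrpl52 at 396 TPM. Mrpl53 stayed last at 0.758 TPM. The 2 sets of values had a Spearman rho of 0.72 over members. Fragments on the other isoforms' exons are still counted here, so the second set overstates genes that use those exons, and which set is closer to the true level was not tested.

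**Figure D3:**
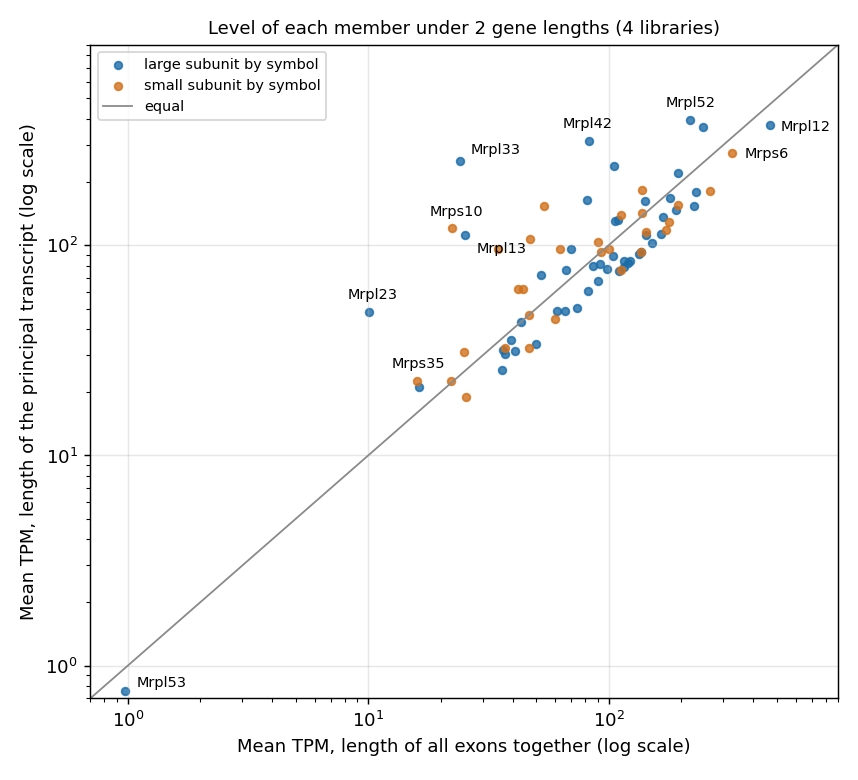
Mean TPM of each member over 4 libraries with the length of the principal transcript (vertical) against that with the length of all exons together (horizontal), both on log scales, with a line of equal values. Mrpl33, Mrps10, Mrpl13 and Mrpl23 lie far above the line, while Mrpl53 stays lowest on both axes.

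Between replicates the members varied little. The labels give a single group, so the test made across genes was whether a gene varies more between replicates than genes of its abundance do. The test used edgeR's quasi-likelihood fit, as the gene's dispersion over the fitted value for its abundance, with Benjamini-Hochberg adjustment over all genes tested. Of 77 members tested, 0 were called at an adjusted p under 0.05, where 36 of 11847 genes were called in all, or 0.304%. At that background a count of 0 among 77 is no result in itself. At an unadjusted p under 0.05 there were also 0 members, where the background was 674 genes or 5.69%. Mrpl53 had too few fragments to be tested. With limma-trend in place of edgeR, 0 members were called at an adjusted p and 0 at an unadjusted p. Over all 11847 genes tested the numbers were 40 and 684. With 1 replicate left out at a time, edgeR again called 0 members at an adjusted p. An unadjusted p under 0.05 was found for 1, 3, 1 and 1 of 77 members without replicates 1, 2, 3 and 4 in turn. Over all genes tested it was found for 677 of 11884, 687 of 12080, 706 of 12060 and 588 of 11889.

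The median dispersion ratio was 0.602 for members and 0.804 for all genes tested, and a ratio under 1 was found for 53 of 77 members (68.8%) and for 59.3% of all genes. It was 0.745 for large subunit genes and 0.558 for small subunit genes. The coefficient of variation of TPM had a median of 3.18% over members and 5.08% over all genes tested, and members are more abundant than most of those. It was under 5% in 60 of 78 members. It was above 10% in Mrpl53, at 16.4%, and in Mrpl14, at 10.7%.

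The highest ratios belonged to Mrpl32, Mrps34 and Mrpl22. Mrpl32, which is cut by a mitochondrial protease before it joins the large subunit, had 161, 150, 175 and 178 TPM and a ratio of 2.61, with an edgeR p of 0.0741 and an adjusted p of 0.940. Mrps34, found only in mitochondria, had 56.6, 63.9, 63.3 and 66.3 TPM and a ratio of 2.56, with replicate 1 lowest. Of its exon bases, 37.0% are shared with Nme3, which averaged 0.591 TPM. Mrpl22, of the tunnel wall, had 78.4, 89.4, 92.8 and 82.9 TPM and a ratio of 2.42, and 33.4% of its words recur elsewhere. Of these 3, Mrpl32 alone was higher in both replicates 3 and 4 than in replicates 1 and 2.

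**Figure D4:**
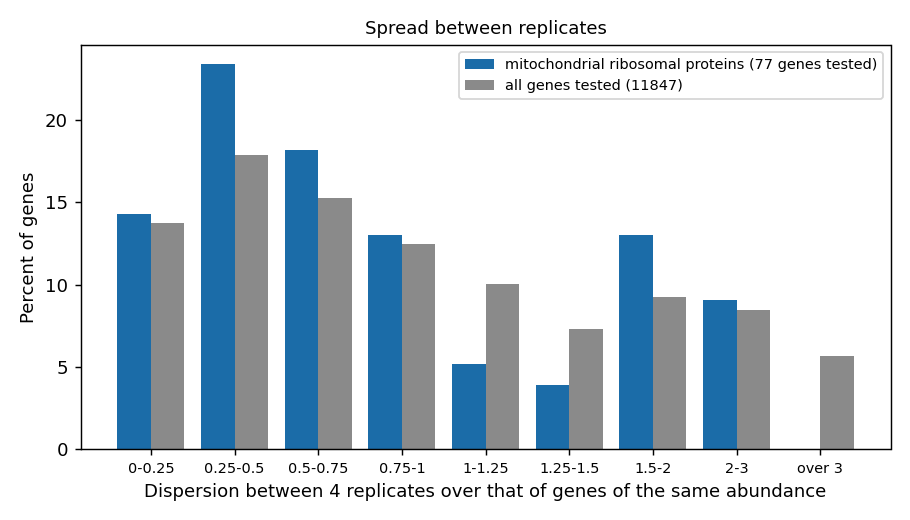
Percent of genes in each class of dispersion between 4 replicates, relative to genes of the same abundance, for the 77 members tested at the left of each pair and all 11847 genes tested at the right. Members hold no gene above a ratio of 3, a class with 5.66% of all genes.

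Small shifts were shared by many members. As log2 CPM (library-scaled counts) relative to each gene's own mean, the median member stood at -0.05 in replicate 1, 0.01 in replicate 2, 0.01 in replicate 3 and 0.03 in replicate 4. Above their own mean were 14, 48, 45 and 58 of the 77 members tested in replicates 1 to 4. Both subunits moved alike, with 10 of 48 large and 4 of 29 small subunit genes above their mean in replicate 1, and 35 large and 23 small in replicate 4. Over all 11847 genes tested the same numbers lay between 5923 and 6059. Replicate 1 was thus low for most members, although the median shift between the lowest and the highest library was only 0.08 on the log2 scale. The 80 cytosolic ribosomal protein genes tested did not follow this order, with medians of -0.01, 0.03, -0.03 and 0.01.

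Members lie on 17 chromosomes, with 11 on chromosome 11, 8 on chromosome 17 and 0 on X, Y or the mitochondrial chromosome. They are short genes. The principal transcript had a median of 1302 bases and 5 exons in members, against 2926 bases and 9 exons in protein-coding genes at 10 TPM or more. Annotated transcripts of other loci, many of them pseudogenes, held 10% or more of the 50-base words of 12 members, and 5 members shared 10% or more of their exon bases with a gene on the same strand. Without these 17 members, large minus small was 0.42 ± 0.02 on the log2 scale.

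Many members start close to the start of another gene that runs the opposite way. Such a gene is called a head-to-head neighbour here, whether or not the pair overlaps at the starts. A head-to-head neighbour with its start within 1 kb was annotated for 37 of 78 members (47.4%), against 31.1% of protein-coding genes at 10 TPM or more and 18.5% of all protein-coding genes. Counting protein-coding neighbours only, the figures were 33 members (42.3%), 19.8% and 10.9%. Of these 33 neighbours, 24 held 10 TPM or more throughout the libraries, and 21 started within 200 bases of the member. Mrpl46 and Mrps11, each other's neighbour, are both among the 33. The member was the higher of the pair in 24 of 33, with a median of 112 TPM for members and 25.6 TPM for their neighbours.

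Some of these partners also serve mitochondria. Mrpl36 averaged 226 ± 12.05 TPM beside Ndufs6, a subunit of respiratory complex I starting 29 bases away, at 234 ± 8.68 TPM. Mrps27 averaged 112 ± 1.92 TPM beside Ptcd2, a pentatricopeptide repeat protein of mitochondria 81 bases away, at 121 ± 3.56 TPM. Mrps12 averaged 143 ± 2.06 TPM beside Sars2, the mitochondrial seryl-tRNA synthetase, at 31.5 ± 0.889 TPM. Mrpl43 averaged 137 ± 6.21 TPM beside Twnk, the helicase that unwinds mitochondrial DNA, at 53.7 ± 0.855 TPM. Other partners were far higher than the member. Mrpl32 averaged 166 ± 12.9 TPM beside the proteasome gene Psma2 at 978 ± 10.52 TPM, and Mrpl49 averaged 121 TPM beside the cytosolic ribosomal protein gene Fau at 1707 TPM. Close starts thus went with like levels in some pairs and with unlike levels in others. Mrpl46 and Mrps11 are each other's neighbour and overlap at their starts, and Mrpl46 averaged 104 TPM and Mrps11 43.9 TPM. Their promoter windows share 141 bases, chr7:78783040-78783180.

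Promoter windows, 250 bases before to 50 bases after the start, were available from RefSeq (GRCm38.p6) for 69 members with 75 windows. Letters known to be bound by factors that act on genes of mitochondria were sought on both strands. The letters CCGGAAG of ETS factors such as GABP were found in 34.7% of member windows, against 22.6% of the 7531 windows of protein-coding genes at 10 TPM or more and 8.86% of all 32851 windows. The letters GCATGCGC of NRF1 were in 10.7%, against 6.56% and 2.71%. The letters AAGATGGC of YY1 were in 16.0%, against 5.80% and 2.75%. Within 50 bases after the start and in the direction of the gene, the YY1 letters were in 10.7%, against 2.87% and 0.865%. They contain ATG, and translation starts lie in that stretch, so the count there mixes both. The ETS and YY1 letters do not contain each other.

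Other letters were counted in the same way. The E-box CACGTG was in 9.33% of member windows, against 11.3% of windows of protein-coding genes at 10 TPM or more. CCAAT of NF-Y was in 40.0%, against 37.8%. GGGCGG of Sp1 was in 52.0%, against 66.5%. TATAAA was in 6.67%, against 6.27%. AAGGTCA of ERR receptors was in 5.33%, against 2.99%, and in 4.72% of all windows. The median GC content was 58.7% in member windows, against 61.7%. By subunit, the ETS letters were in 31.3% of 48 large and 40.7% of 27 small subunit windows. In the same order, the NRF1 letters were in 7 and 1 of these windows and the YY1 letters in 6 and 6. These matches are descriptions of letters and no binding was measured.

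**Figure D5:**
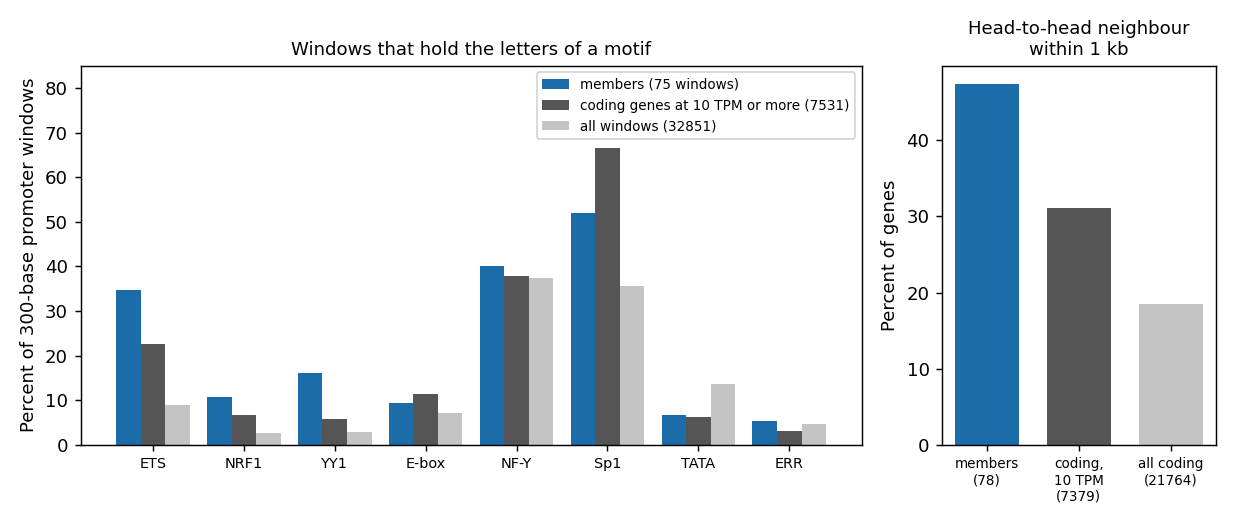
At the left, percent of promoter windows that hold the letters of each motif on either strand, for the 75 member windows, 7531 windows of protein-coding genes at 10 TPM or more, and all 32851 windows. At the right, percent of genes with a head-to-head neighbour within 1 kb. Members stand above both other sets for ETS, NRF1, YY1 and head-to-head neighbours, and below expressed genes for Sp1 and the E-box. The NRF1 share rests on 8 member windows, 7 of them of large subunit genes. The NF-Y share, 40.0%, is near those of the other sets, 37.8% and 37.4%. ERR letters are in only 4 member windows, 5.33% against 2.99% and 4.72%.

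The windows below show the highest and the lowest member, the member with the most NRF1 matches, and a pair with ETS and YY1 letters. They run in the direction of the gene, and capitals mark ETS, NRF1 or YY1 letters on either strand. Mrpl12 had none of them, and Mrpl53 had ETS letters in both directions. The place of Mrpl53 at the bottom of the range rests on 30 fragments, and 88.0% of its exon bases overlap Gm42688. Mrpl32 had overlapping NRF1 letters upstream of its start and YY1 letters at the far end. Mrps18a and Mrps27 had ETS letters before the start and YY1 letters just after it.
Mrpl12, chr11:120484387-120484686, plus strand: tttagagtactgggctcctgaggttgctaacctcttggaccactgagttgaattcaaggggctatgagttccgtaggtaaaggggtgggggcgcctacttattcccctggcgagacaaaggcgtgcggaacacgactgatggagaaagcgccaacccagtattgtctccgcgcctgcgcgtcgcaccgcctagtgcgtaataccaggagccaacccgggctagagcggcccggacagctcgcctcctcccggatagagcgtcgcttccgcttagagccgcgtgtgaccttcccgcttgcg
Mrpl53, chr6:83108858-83109157, plus strand: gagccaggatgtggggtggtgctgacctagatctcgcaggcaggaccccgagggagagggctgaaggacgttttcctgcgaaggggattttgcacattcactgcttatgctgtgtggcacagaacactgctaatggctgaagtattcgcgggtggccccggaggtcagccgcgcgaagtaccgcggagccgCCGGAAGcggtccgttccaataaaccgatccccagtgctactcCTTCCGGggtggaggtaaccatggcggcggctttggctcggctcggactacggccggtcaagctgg
Mrpl32, chr13:14612988-14613287, minus strand: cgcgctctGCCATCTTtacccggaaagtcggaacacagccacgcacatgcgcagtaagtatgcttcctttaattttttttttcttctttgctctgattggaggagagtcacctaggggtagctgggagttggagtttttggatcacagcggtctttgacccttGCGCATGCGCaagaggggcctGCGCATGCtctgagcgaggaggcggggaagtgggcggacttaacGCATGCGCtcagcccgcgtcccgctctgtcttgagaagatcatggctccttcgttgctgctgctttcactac
Mrps18a, chr17:46110754-46111053, plus strand: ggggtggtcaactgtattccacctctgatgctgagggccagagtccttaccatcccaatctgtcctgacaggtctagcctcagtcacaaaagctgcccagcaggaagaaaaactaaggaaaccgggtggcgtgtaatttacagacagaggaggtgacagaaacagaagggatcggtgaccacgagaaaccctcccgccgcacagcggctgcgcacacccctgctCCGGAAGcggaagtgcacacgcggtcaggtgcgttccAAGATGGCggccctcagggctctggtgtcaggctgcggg
Mrps27, chr13:99344536-99344835, plus strand: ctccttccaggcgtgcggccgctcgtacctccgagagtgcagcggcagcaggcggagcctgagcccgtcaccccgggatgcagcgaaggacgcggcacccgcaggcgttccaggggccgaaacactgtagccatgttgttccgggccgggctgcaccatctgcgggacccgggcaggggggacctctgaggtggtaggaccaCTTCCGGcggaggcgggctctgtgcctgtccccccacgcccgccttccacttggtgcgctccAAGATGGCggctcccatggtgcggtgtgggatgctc

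Other genes of mitochondrial translation were all at 1 TPM or more, with list medians below that of the ribosomal proteins. The lists were the assembly factors, translation factors, tRNA synthetases and genes that express mitochondrial DNA. Of 27 assembly factors, 24 held at least 10 TPM throughout and 2 at least 100 TPM, with a median of 33.1 TPM. They ran from 6.61 ± 0.918 TPM for the methyltransferase Mettl15 to 569 ± 30.1 TPM for C1qbp, a matrix protein. Of 15 translation factors, 13 were at 10 TPM or more, with a median of 36.5 TPM, between Mtrf1, a release factor, at 3.54 ± 0.464 TPM and Tufm, the elongation factor that brings tRNA to the ribosome, at 207 ± 4.44 TPM. Of 11 genes that express mitochondrial DNA, 10 were at 10 TPM or more, with a median of 53.7 TPM, between Polg2, a subunit of the DNA polymerase, at 6.68 ± 0.831 TPM and Elac2, which cuts tRNA ends, at 155 ± 5.45 TPM. The 78 members had a median of 91.6 ± 2.27 TPM.

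Of 17 mitochondrial tRNA synthetases, 15 held at least 10 TPM throughout and 0 at least 100 TPM, with a median of 31.5 TPM. The lowest was Ears2, for glutamate, at 7.42 ± 0.460 TPM. The highest was Lars2, for leucine, with 118, 103, 72.3 and 63.6 TPM, higher in replicates 1 and 2 than in 3 and 4. It was the only gene of these 4 lists called in the variability test, with an edgeR adjusted p of 4.14e-10. Xist also had its higher levels in replicates 1 and 2, and its part in this was not tested. The ribosomal RNAs of mitochondria had 529 ± 10.1 TPM for mt-Rnr1 of the small subunit and 409 ± 17.2 TPM for mt-Rnr2 of the large subunit. The labels link a PolyA+ library protocol, and how far library preparation removed ribosomal RNA was not tested. These values therefore do not rank ribosomal RNAs against messenger RNAs in the cell. Of 13 protein-coding genes of the mitochondrial chromosome, 7 held at least 10 TPM throughout, between mt-Nd6 at 64.7 ± 5.33 TPM and mt-Co1 at 6948 ± 381 TPM. The other 6 had 4 fragments or fewer over all libraries, and whether their fragments were lost in alignment or counting was not tested.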

How the data were processed

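Per the file headers, the authors' deposited values were raw fragment counts per gene from featureCounts 1.4.6-p4 with the GENCODE vM13 annotation: paired ends, both aligned, reverse strand (option 2), summed over exons. The build was mm10, per the labels. How fragments with several alignments or several genes were treated is not stated in the headers or labels; if they were left out, as by the program's default, genes with near copies or overlapping exons are undercounted. Lengths in the deposited files cover the exons of all isoforms.

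Symbols and classes came from GENCODE M21, matching 50376 of 50600 identifiers with versions ignored. TPM was computed as count over length, scaled to 1000000. Transcript lengths used as alternatives were capped at the exon length counted, and that exon length was kept where the annotation gave no such transcript. Members and lists were chosen with earlier results of these data known. The named genes were the 4 highest and 4 lowest of each subunit, genes with a role or symbol apart, the 3 most variable, and the ends of each list. Of the lists, 1 symbol found no match.

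For variability, edgeR 4.0.16 ran under R 4.3.3 (TMM, filterByExpr, intercept only, robust prior). Residual dispersion over its prior was referred to the F distribution. In simulated counts, 66% of genes given an extra log2 SD of 0.25 were called, and 91% at 0.5. Of 161 genes called there, 4 were false. The genes changed were well-counted ones, and the simulation had no spread of dispersion between genes of like abundance. Replicates are biological by label, but 1 donor identifier covers all, so p-values measure the spread between these samples. Alternatives used DESeq2 1.42.0 size factors, limma 3.58.1, other lengths, groupings, pseudocounts and filters, and each replicate left out. A 3-fragment floor covers counting error only. Levels and figures were made in Python 3.11.15 (pandas 2.3.3, numpy 2.4.6, matplotlib 3.10.9, scipy 1.17.1).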

Additional observations from a re-analysis of the deposited data

Results flagged for a closer look

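Mrps11, a platform protein of the small subunit, had 1 library apart from the others. It stood at 46.8 TPM in replicate 4, against 42.8 to 43.4 TPM in the other 3 replicates, and that gap was 0.840 of the whole range, just past Dixon's limit for 4 samples. It was the only one of 81 values examined in this way, and chance alone gives about 1 in 20.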

How the results depend on the processing

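The subunit difference of 0.62 on the log2 scale moved to 0.15 with subunits assigned by place, 0.18 with means and 0.42 without members that share sequence or exons. Assignment by place, here and for the shares below, also added the 5 subunits with other symbols and left out Mrps36. It reversed to -0.14 with the longest coding transcript and -0.17 with the principal transcript. Leaving out 1 replicate gave 0.61 to 0.62. The contrast of bacterial with mitochondria-specific proteins in the large subunit, -0.20, reversed to 0.16 with means and was -0.0065 with the principal transcript (leaving out 1 replicate, -0.20 to -0.18). In the small subunit, 1.03 moved to 0.76 with means and 0.65 with the principal transcript (1.02 to 1.04 leaving out 1 replicate). No setting added the subunits with other symbols to the bacterial contrast. The large subunit's share of 0.536% became 0.565% by place, 0.580% with the longest coding and 0.571% with the principal transcript, 0.640% without mitochondrial-chromosome and cytosolic ribosomal protein genes, and 0.322% as fragments (0.534% to 0.540% leaving out 1 replicate). The small subunit's 0.279% became 0.315%, 0.293%, 0.285%, 0.332% and 0.161% under those same settings (0.277% to 0.280% leaving out 1 replicate). The cause of these shifts was not tested beyond the change of grouping, length or denominator itself.

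The count of genes called as variable, 36, became 94 without a filter on low counts and 17 with a prior without robust estimation; leaving out 1 replicate gave 15 to 37, the lowest without replicate 4. The count of members called at an adjusted p under 0.05 was 0 under every alternative tried. The 77 members at 10 TPM or more kept that number under every alternative, and head-to-head neighbours numbered 29 within 0.5 kb and 40 within 2 kb. The principal transcript length, the removal of members that share sequence or exons, and all alternatives for the bacterial contrast were chosen after seeing the data. No paired analysis was possible because there is 1 group.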
